A study of Mus musculus with 18 samples.

Results

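Colon RNA from mice with a knockout of *Cldn2* was compared after a carcinogen and colitis protocol (AOM/DSS) and without it. Membership followed GEO's genotype label, Claudin-2 knockout, and treatment label, AOM-DSS or Control. It gave 6 of the 18 libraries of the series, 3 per group, each summed over its 2 sequencing lanes. Mice of the AOM/DSS group had received 1 dose of azoxymethane (10 mg/kg body weight) and 3 cycles of dextran sulfate sodium (2.5% w/v), and those of the Control group were untreated. Both groups shared the knockout on a C57BL/6 background, and the line was bred with WT mice. The comparison asks which genes the protocol moved in colon that cannot make claudin-2. The labels give the tissue as colon. They give no age, no time of sampling and no statement of whether a piece held tumor. Nor do they say that replicates were separate animals, so p-values here measure the spread between libraries, which may be technical. In the main fit that spread was estimated over all 18 libraries of the series, not over these 6 alone. Sex-linked genes, described with the libraries, show that the AOM/DSS group held more than 1 animal.

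Claudin-2 is a tight junction protein that forms a paracellular channel for cations and water. Azoxymethane is an alkylating carcinogen acting on the colon, and dextran sulfate sodium injures the epithelium and brings on colitis. Tumors of this model often carry activating changes in β-catenin, the effector of Wnt signaling, which in the normal crypt maintains stem cells and represses the surface colonocyte programme.

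*Cldn2* was close to absent in all 6 libraries. It stood at 0.523, 0.162 and 0.141 CPM (counts per M reads, with TMM scaling) in AOM/DSS replicates 1, 2 and 3 and at 0.197, 0.0555 and 0.161 CPM in Control replicates 1, 2 and 3. Values are given in this order throughout. The WT libraries of the same treatments held 205, 126 and 135 and 131, 44.5 and 127 CPM. Knockout libraries held 17.8 to 27.4 M reads. Defining epithelial genes were at colonic levels in both groups, with *Epcam* at 2304, 1865 and 1983 CPM after AOM/DSS and 2095, 2239.6 and 2147 CPM in controls. The position gene *Hoxb13*, which marks distal colon, stood at 345, 392 and 312 CPM and 444, 494 and 570.1 CPM. *Cdx2*, the intestinal identity factor, stood at 28.2, 27.5 and 21.3 CPM and 27.9, 28.3 and 30.998 CPM.

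AOM/DSS replicate 2 stood apart from the other two. On the first principal component of the 6 libraries (57.6% of the variance) it scored 4.76, against -65.9 and -68.9 for replicates 1 and 3 and 35.2 to 52.4 for the controls. Its log2 CPM correlated at 0.961 and 0.968 with replicates 1 and 3, which correlated at 0.982 with each other. *Xist* also split the group, at 0.333, 1649 and 1594 CPM after AOM/DSS and 0.542, 0.499 and 0.108 CPM in controls. Replicates 2 and 3 were thus high for this RNA of the inactive X, and the remaining 4 knockout libraries were near 0. The Y-linked *Ddx3y* had the reverse pattern, at 60.5, 0.0649 and 0.0352 CPM and 78.6, 105 and 70.5 CPM. The methods of the study describe mice matched for sex, but by these genes the AOM/DSS group was mixed and the Control group was not, and every fold change compares groups of that makeup. Control replicate 3 was the highest of the controls in the summed B and plasma cell genes, which stood at 425, 265 and 722 CPM.

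The protocol changed 33 of 16937 genes in the knockout (0.195%) by edgeR's quasi-likelihood test at a Benjamini-Hochberg adjusted p under 0.05. Of these, 13 rose (0.0768% of genes tested) and 20 fell (0.118%). The 6 libraries separated without overlap for all 33. A further count shows how wide the difference below that threshold was. Unadjusted p was under 0.05 for 2573 genes, 1456 of them higher and 1117 lower. Counts of list members with such a p are to be read against these numbers of the 16937 tested. Ranges of CPM did not overlap for 15.03% of all genes in the higher direction and 14.1% in the lower. DESeq2 on the same 18 libraries called 2.15% of its genes higher and 1.40% lower, and edgeR on these 6 libraries alone called 3.10% higher and 2.77% lower. Without AOM/DSS replicate 2, edgeR called 0.572% higher and 0.647% lower. All 33 genes were called in the same direction by DESeq2 and in the fit of the 6 libraries alone, and 31 without replicate 2. *Ddah1*, *Lars2*, *Tob1* and *Gm15564* kept their call whichever of the 6 libraries was left out. Of these *Ddah1* was called under each of the 17 alternatives fitted. The other three lost the call where replicate 1 was the sole treated library, and *Tob1* also with smooth muscle level as a covariate. The remaining 29 lost it when at least 1 of the 6 libraries was left out, and all 33 kept their sign in every alternative that could be run. A further fit took *Xist* as a covariate, coded only as over 100 CPM or not. There edgeR called 1 gene higher and 4 lower, so most calls did not hold in that fit. The log2 fold changes of the 33 were 84.9% to 122% of their size without it (median 99.9%).

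*Ddah1*, *Lars2* and *Gm15564* tied at the smallest adjusted p of the comparison. *Ddah1* encodes the enzyme that breaks down asymmetric dimethylarginine, an inhibitor of nitric oxide synthases. It stood at 63.4, 44.2 and 60.1 CPM after AOM/DSS and 15.9, 10.2 and 14.9 CPM in controls. Its log2 fold change was 2.03 ± 0.22 (SE; adjusted p = 0.000421, edgeR), and the lowest treated library was well above the highest control. *Lars2*, the mitochondrial leucyl-tRNA synthetase, went the other way. It stood at 92.04, 120.4 and 112 CPM against 314, 561 and 439 CPM, a log2 fold change of -2.02 ± 0.21 (adjusted p = 0.000421, edgeR). *Gm15564*, an annotated gene that moved in parallel with *Lars2*, had a log2 fold change of -2.29 ± 0.24. The ratio of *Lars2* to *Gm15564* reads was 5.57 to 7.48 in the 6 libraries, and their calls may not be independent.

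**Figure D1:**
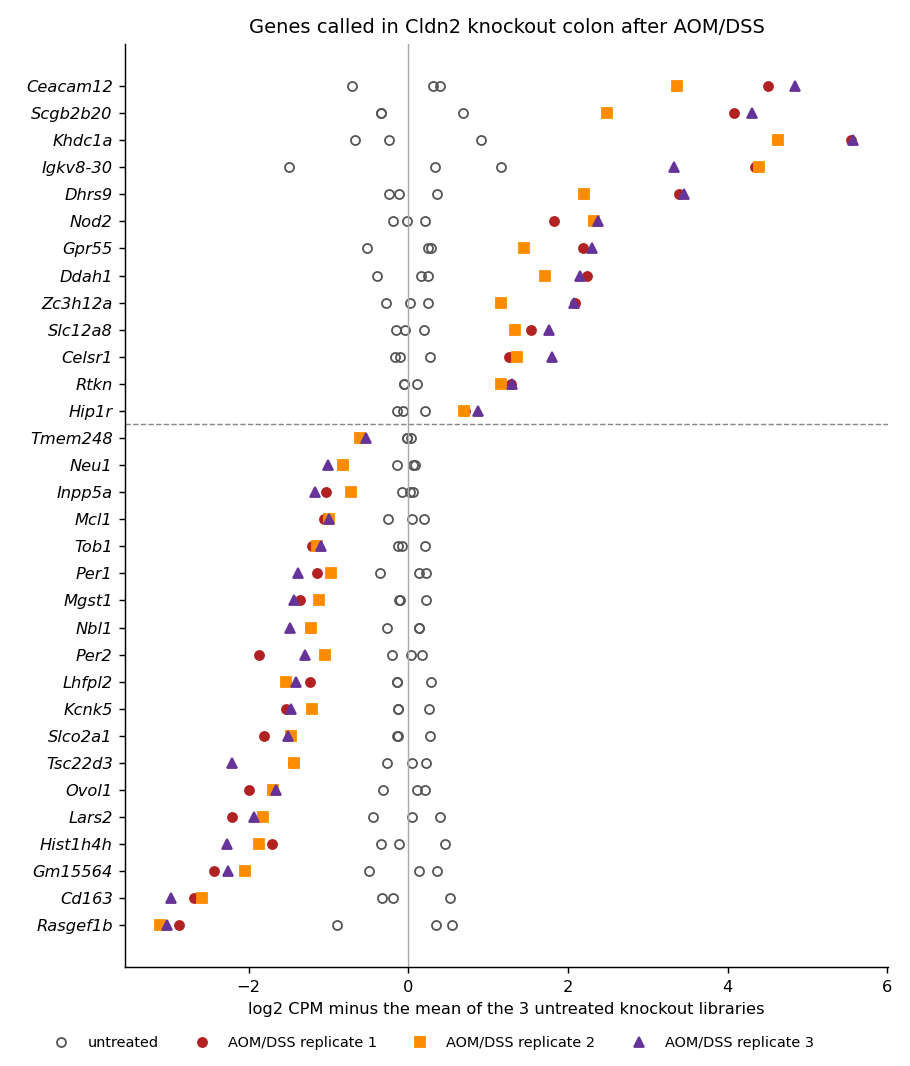
Level of genes that passed the test, as log2 CPM in each knockout library relative to the mean of the Control libraries. Open circles are the 3 untreated libraries and filled symbols the AOM/DSS replicates, and the dashed line divides genes that rose from those that fell. The 3 treated libraries lie on one side of the controls for every gene shown.

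The 13 genes that rose included *Dhrs9*, *Nod2* and *Zc3h12a*. *Dhrs9*, a dehydrogenase of retinoids and hydroxysteroids, stood at 99.4, 43.4 and 104 CPM against 7.94, 12.04 and 8.66 CPM (log2 fold change 3.11 ± 0.54, adjusted p = 0.0384 by edgeR). *Nod2*, the intracellular sensor of bacterial muramyl dipeptide, stood at 2.76, 3.96 and 4.09 CPM against 0.838, 0.6103 and 0.6996 CPM (log2 fold change 2.32 ± 0.45, adjusted p = 0.0494). *Zc3h12a* encodes Regnase-1, an RNase that degrades inflammatory mRNAs. Its levels were 60.5, 31.8 and 59.9 CPM and 11.6, 14.4 and 16.8 CPM, a log2 fold change of 1.83 ± 0.32. In each of these, replicate 2 was the nearest of the treated libraries to the controls or, for *Nod2*, between the other two.

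The largest changes upward were in genes nearly silent in control colon. *Khdc1a*, of a gene family best known from oocytes and with close copies, went from 1.48, 0.6103 and 0.431 CPM in controls to 39.1, 20.6 and 39.8 CPM (log2 fold change 5.28 ± 0.91). Its reads may be shared with those copies, which makes its level uncertain. *Ceacam12*, of the carcinoembryonic antigen family, stood at 3.47, 1.53 and 4.403 CPM against 0.0986, 0.111 and 0 CPM, with only 4 reads in the 3 controls together (log2 fold change 5.36 ± 0.86). *Scgb2b20*, a secretoglobin, had 2 control reads in all, and its AOM/DSS levels were 1.95, 0.584 and 2.29 CPM. *Igkv8-30*, a light-chain segment of antibodies, stood at 8.56, 8.89 and 4.19 CPM against 0.444, 0.0555 and 0.861 CPM. The level of a segment can follow which B cell clones a piece of tissue holds.

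Of the other genes that rose, *Celsr1*, a cadherin of planar cell polarity, stood at 71.5, 76.2 and 104 CPM against 35.9, 26.4 and 27.6 CPM (log2 fold change 1.48 ± 0.28). *Slc12a8*, of the cation-chloride cotransporter family, stood at 40.98, 35.5 and 48.1 CPM against 16.2, 12.7 and 13.6 CPM (log2 fold change 1.55 ± 0.30). *Gpr55*, a receptor for lysophosphatidylinositol, stood at 5.28, 3.12 and 5.71 CPM against 1.33, 0.721 and 1.29 CPM, and *Rtkn*, which encodes rhotekin, at 11.03, 10.1 and 11.1 CPM against 4.29, 4.83 and 4.31 CPM. *Hip1r*, an adaptor between clathrin and actin, had the smallest rise of the 13 (log2 fold change 0.75 ± 0.14). Exons of 7 called genes overlap exons on the opposite strand, namely *Ceacam12*, *Gpr55*, *Rtkn* and *Hip1r* among those that rose and *Tmem248*, *Inpp5a* and *Slco2a1* among those that fell. The strand setting of the counting is not given in the sources used here, so part of their reads may belong to the neighbor.

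For *Dhrs9* the promoter window held a match to the AP-1 motif. The 250 bases before its annotated start, on the plus strand of GRCm38.p6 at chr2:69380212-69380461 from RefSeq, are printed with that match in capitals, because *Dhrs9* had the larger change of the 2 genes that rose and hold such a match.
Dhrs9: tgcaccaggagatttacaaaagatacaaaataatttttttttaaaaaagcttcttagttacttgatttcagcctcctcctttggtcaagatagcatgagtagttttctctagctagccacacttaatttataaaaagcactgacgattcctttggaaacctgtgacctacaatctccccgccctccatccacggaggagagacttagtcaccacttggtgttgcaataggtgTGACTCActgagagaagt
AP-1 was searched as TGAGTCA and TGACTCA, which are each other's reverse complement, and 4.46% of all 32851 windows of 27025 genes held a match. Among the 13 genes that rose, 10 had a window and 2 of these had an AP-1 match, *Dhrs9* and *Rtkn*. Of the 20 that fell, 16 had a window and 2 had a match, *Inpp5a* and *Neu1*. By windows these were 2 of 15 (13.3%) and 2 of 24 (8.33%). A match describes the letters of the window and shows no binding.

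Genes that fell included regulators of epithelial differentiation, transport and cell survival. *Ovol1*, a zinc finger factor of epithelial differentiation, stood at 6.75, 8.31 and 8.56 CPM against 21.7, 31.4 and 29.3 CPM (log2 fold change -1.801 ± 0.27, adjusted p = 0.0152 by edgeR). *Slco2a1*, the prostaglandin uptake transporter, stood at 43.5, 55.1 and 53.5 CPM against 139, 184 and 138 CPM (log2 fold change -1.601 ± 0.29). *Kcnk5*, a background potassium channel of epithelia, stood at 46.2, 58.1 and 48.4 CPM against 123, 161 and 122 CPM (log2 fold change -1.41 ± 0.25). For all 3 genes the treated libraries lay close together, replicate 2 included.

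*Mcl1*, an anti-apoptotic protein of the BCL2 family, fell from 977, 1087 and 795 CPM in controls to 453, 474 and 475 CPM after AOM/DSS. Its log2 fold change was -1.03 ± 0.17 (adjusted p = 0.0367, edgeR), and the 3 treated libraries were nearly equal. *Tob1*, an antiproliferative factor, fell by 1.16 on the log2 scale, to 75.97, 79.6 and 81.9 CPM from 160.4, 203 and 167 CPM. *Tsc22d3*, the glucocorticoid-induced leucine zipper, stood at 47.02, 47.2 and 27.7 CPM against 106, 132 and 149 CPM (log2 fold change -1.67 ± 0.32). *Lhfpl2*, of a family of tetraspan membrane proteins, stood at 79.97, 64.6 and 70.8 CPM against 169.9, 229 and 171 CPM (log2 fold change -1.403 ± 0.24).

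*Cd163*, the scavenger receptor for hemoglobin on resident macrophages, fell to 0.238, 0.2596 and 0.176 CPM from 1.77, 1.61 and 2.96 CPM (log2 fold change -3.203 ± 0.58, adjusted p = 0.0384 by edgeR). The wider macrophage list did not follow it. Of 20 tested macrophage and monocyte genes, 1 was called, *Cd163* itself, and the median log2 fold change was 0.29. *Csf1r*, the receptor that defines the lineage, stood at 5.56, 9.35 and 5.95 CPM and 5.32, 4.61 and 9.47 CPM, overlapping. *Rasgef1b*, a Ras exchange factor, had the largest fall of the genes called, to 0.285, 0.227 and 0.247 CPM from 3.45, 3.99 and 1.399 CPM (log2 fold change -3.52 ± 0.67).

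The lysosomal sialidase gene *Neu1* also fell. It stood at 110.1, 110.04 and 96.1 CPM against 176, 206 and 201 CPM (log2 fold change -0.88 ± 0.17). Other members that fell were *Nbl1*, an antagonist of BMP ligands (log2 fold change -1.32 ± 0.23), *Mgst1*, a microsomal glutathione transferase (-1.31 ± 0.25), *Inpp5a*, an inositol phosphate phosphatase (-0.96 ± 0.17), *Tmem248* (-0.58 ± 0.11) and *Hist1h4h* (-2.04 ± 0.38). The last has close histone copies that could share its reads, so its value is uncertain.

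Clock genes fell or stood lower in the treated knockout. In mammals CLOCK and BMAL1 (*Arntl*) drive transcription from E-box sequences, PER and CRY proteins repress them, and NR1D and ROR receptors form another loop. Of 19 tested clock genes, edgeR called *Per1* and *Per2*, both lower. *Per2* stood at 31.5, 55.8 and 46.95 CPM against 118, 129.997 and 99.6 CPM (log2 fold change -1.37 ± 0.20, adjusted p = 0.013), and *Per1* at 21.6, 24.4 and 18.4 CPM against 37.5, 55.8 and 52.8 CPM (log2 fold change -1.18 ± 0.21, adjusted p = 0.0384). The median of the 19 was -0.95, against 0.01 over all genes tested. Ranges did not overlap in the lower direction for 13 members and in the higher direction for 0, where 14.1% and 15.03% of all genes had such ranges.

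Repressors and output genes of the clock lay furthest below their controls. *Ciart*, a repressor of the loop, stood at 7.99, 10.2 and 2.96 CPM against 24.7, 25.2 and 26.96 CPM (log2 fold change -1.86 ± 0.50, adjusted p = 0.122). The output factor *Dbp* stood at 19.4, 38.7 and 13.4 CPM against 68.6, 86.4 and 68.9 CPM (adjusted p = 0.233) and *Cry2* at 16.6, 24.3 and 22.5 CPM against 42.9, 50.9 and 47.1 CPM (adjusted p = 0.0996). Of the activating arm, *Arntl* also lay below every control, by less, at 19.6, 17.7 and 17.05 CPM against 26.03, 28.9 and 19.97 CPM. *Clock* overlapped, at 140.5, 208 and 194 CPM against 169, 181 and 114 CPM. DESeq2 called 6 of the 19 lower and the fit of the 6 libraries alone 9. Without replicate 2, edgeR called 2 of the 19, both lower, and the median was -1.14. The hour of sampling is not in the labels, and its part in these values was not tested.

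**Figure D2:**
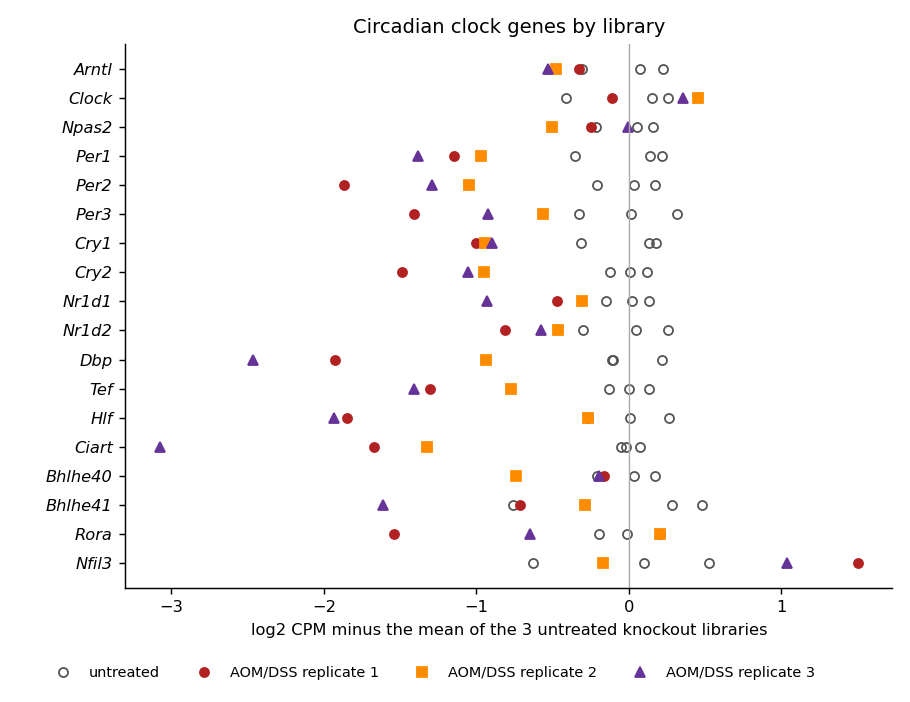
Log2 CPM of clock genes in each knockout library relative to the mean of the Control libraries, 1 row per gene, with open circles for untreated libraries and a filled symbol for each AOM/DSS replicate. The treated libraries of *Per1*, *Per2*, *Cry2* and *Ciart* lie below the 3 controls, and those of *Clock* and *Nfil3* overlap them.

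Promoter windows of *Per1* and *Ciart* are printed because both hold the clock's own target sequence, the E-box CACGTG, shown in capitals. They are the 250 bases before an annotated start in RefSeq (GRCm38.p6). For *Per1* this is chr11:69098699-69098948 on the plus strand, and for *Ciart* chr3:95882229-95882478 on the minus strand. The *Per1* window lies inside that gene, whose counted exons begin at chr11:69095217, and so precedes a later start. Where a gene had several windows, the first with a match was printed, here and for *Dhrs9* and *Sp5*.
Per1: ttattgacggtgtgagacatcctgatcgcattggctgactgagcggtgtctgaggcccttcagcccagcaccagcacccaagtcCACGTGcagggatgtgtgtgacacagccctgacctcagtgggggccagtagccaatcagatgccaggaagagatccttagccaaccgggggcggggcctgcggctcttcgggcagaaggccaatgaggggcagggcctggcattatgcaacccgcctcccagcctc
Ciart: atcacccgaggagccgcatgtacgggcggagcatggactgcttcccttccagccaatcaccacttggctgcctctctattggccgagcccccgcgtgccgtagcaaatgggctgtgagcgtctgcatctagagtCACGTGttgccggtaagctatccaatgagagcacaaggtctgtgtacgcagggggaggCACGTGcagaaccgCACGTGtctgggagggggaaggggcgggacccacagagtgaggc
*Per1* held 1 match and *Ciart* 3, and the motif is its own reverse complement. Of the 19 clock genes, 16 had a window and 5 of these held an E-box (*Bhlhe41*, *Ciart*, *Cry1*, *Per1* and *Tef*). By windows this was 6 of 21 (28.6%), where 6.02% of all windows held one. This motif was added after the values were seen.

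Wnt target genes stood higher in the treated knockout libraries, by the list median more so in replicates 1 and 3 than in replicate 2, where some members, such as *Nkd1*, *Prox1* and *Apcdd1*, were within or below the controls. edgeR called 0 of 22 tested members, of which 16 had an unadjusted p under 0.05, all higher. DESeq2 called 9 higher, the fit of the 6 libraries alone 11, and edgeR without replicate 2 called 3, *Notum*, *Wif1* and *Prox1*. The list's median log2 fold change was 1.51 with all libraries and 1.97 without replicate 2. Ranges did not overlap for 14 of 22, all in the higher direction (15.03% of all genes), so for these replicate 2 also exceeded every control.

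Members of the Wnt list differed in how far replicate 2 stood from the controls. *Notum*, which inactivates Wnt ligands by removing their lipid, stood at 38.9, 0.2596 and 42.2 CPM after AOM/DSS, with 4 reads in the 3 controls together. Its adjusted p was 0.122 with all libraries and 0.0434 without replicate 2. *Wif1*, a secreted inhibitor that binds Wnt ligands, stood at 96.4, 1.36 and 141 CPM against 1.43, 0.444 and 0.6996 CPM (adjusted p = 0.122, and 0.043 without replicate 2). *Nkd1*, an intracellular inhibitor, stood at 98.5, 9.28 and 82.6 CPM against 10.3, 14.04 and 12.8 CPM (adjusted p = 0.292). *Znrf3*, a ligase that removes Wnt receptors, was by contrast level in replicates 1 and 2, at 20.4, 20.2 and 30.4 CPM against 13.01, 9.65 and 8.29 CPM (adjusted p = 0.183). *Axin2*, the feedback scaffold used most often as a readout of the pathway, was higher in all 3 treated libraries, at 57.5, 29.5 and 72.7 CPM against 12.6, 10.5 and 9.47 CPM (log2 fold change 2.29 ± 0.72, adjusted p = 0.171).

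Stem cell and transcription factor genes followed in part. *Lgr5*, the receptor that marks crypt base stem cells, stood at 20.6, 3.797 and 33.01 CPM against 6.902, 5.94 and 7.37 CPM, with replicate 2 below every control. *Prox1*, a transcription factor of intestinal adenomas, stood at 74.9, 3.15 and 92.9 CPM against 3.204, 2.89 and 2.64 CPM (log2 fold change 4.29 ± 1.21, adjusted p = 0.141, and 0.0469 without replicate 2). Replicate 2 lay with the controls in *Prox1* but with the treated libraries in *Sox4*, which stood at 18.97, 16.1 and 31.9 CPM against 6.06, 5.38 and 3.34 CPM, and in *Myc*, at 34.3, 27.7 and 30.2 CPM against 16.02, 8.66 and 12.2 CPM (adjusted p = 0.141 and 0.141). *Sox9*, a crypt factor, overlapped at 49.5, 47.1 and 72.8 CPM and 52.9, 64.7 and 51.3 CPM.

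**Figure D3:**
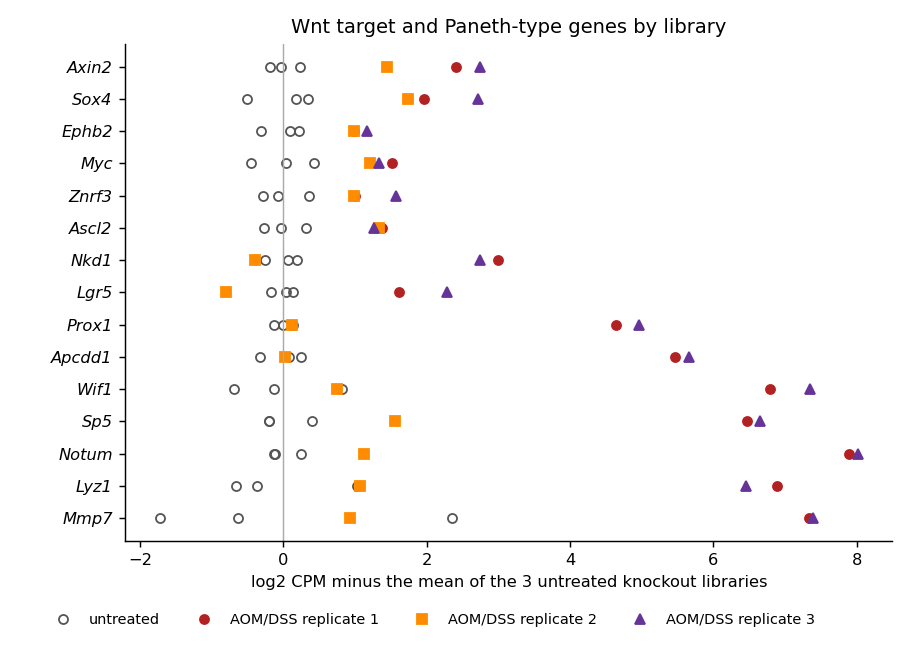
Log2 CPM of 13 Wnt target genes and of *Lyz1* and *Mmp7* in each knockout library relative to the mean of the Control libraries (open circles, untreated, and 1 filled symbol per AOM/DSS replicate, squares for replicate 2). For *Notum*, *Wif1*, *Prox1* and *Apcdd1* replicates 1 and 3 lie far to the right and replicate 2 near the controls, and for *Myc* and *Ephb2* the 3 treated libraries lie together.

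*Sp5*, a factor induced directly by β-catenin, stood at 9.604, 0.227 and 10.9 CPM with 1 control read in all. Its promoter window is printed as the member with most matches to the TCF/LEF motif, searched on both strands as CTTTGAA or CTTTGAT or CTTTGTA or CTTTGTT and shown in capitals, at chr2:70474673-70474922 on the plus strand (RefSeq, GRCm38.p6).
Sp5: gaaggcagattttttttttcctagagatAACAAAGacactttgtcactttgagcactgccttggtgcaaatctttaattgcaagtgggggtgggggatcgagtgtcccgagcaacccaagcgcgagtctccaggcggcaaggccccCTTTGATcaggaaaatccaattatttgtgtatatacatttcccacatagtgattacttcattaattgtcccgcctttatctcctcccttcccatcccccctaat
The window held 2 matches, 1 of them on the minus strand and read here as AACAAAG. Of the 22 Wnt target genes 14 had a window and 3 of these a match (*Lef1*, *Sp5* and *Tnfrsf19*). By windows this was 3 of 21 (14.3%), near the 14.8% of all windows.

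Genes of Paneth cells, a cell type normally absent from mouse colon that secretes antimicrobial proteins, had the same pattern over libraries. *Lyz1* stood at 488, 8.5996 and 362 CPM against 2.51, 3.11 and 8.34 CPM (log2 fold change 5.94 ± 1.45, adjusted p = 0.112, and 0.0392 without replicate 2). *Mmp7*, which also occurs in tumor epithelium, stood at 79.7, 0.844 and 82.8 CPM against 2.42, 0.222 and 0.0538 CPM, and *Defa24*, a defensin, at 29.1, 0.1298 and 34.3 CPM with no control read. edgeR called 0 of the 9 tested members, of which 8 had an unadjusted p under 0.05. DESeq2 called 6 and edgeR without replicate 2 called 2, all higher. The median was 5.87, or 4.87 with the 2 genes that lacked control reads set against 3 reads over the controls. Summed over the list, the level was 809.5, 31.3 and 622 CPM after AOM/DSS and 11.8, 8.05 and 13.9 CPM in controls.

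Genes listed for neutrophils and their chemokines stood higher in the treated libraries, most of them at low levels. *S100a9*, a calcium-binding protein of neutrophils, stood at 7.32, 1.95 and 6.62 CPM against 0.0493, 0 and 0.0538 CPM, and its partner *S100a8* at 4.33, 2.08 and 8.77 CPM against 0, 0 and 0.108 CPM. The chemokine *Cxcl5*, which recruits neutrophils, stood at 50.9, 16.7 and 53.999 CPM against 2.91, 4.49 and 5.54 CPM (adjusted p = 0.222). Of 22 listed genes 16 passed the filter on low counts, and edgeR called 0 of them (11 with an unadjusted p under 0.05). Members near 0 in controls could pass only through libraries where they were higher. The counts and the median of this list can therefore lean upward by selection. DESeq2 and the fit of the 6 libraries alone each called 7 higher. The median was 3.31, or 2.93 with the 3 genes without control reads at their bound. *Cd177*, a neutrophil surface protein, stood far above the rest of the list at 271, 204 and 377 CPM against 43.5, 28.6 and 48.2 CPM (log2 fold change 2.82 ± 0.68, adjusted p = 0.11). The controls held it at that level with *S100a8* and *S100a9* at most 0.108 CPM. Which cells its reads came from was not tested.

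Of the inflammatory genes, *Nos2*, the inducible nitric oxide synthase, stood at 20.9, 10.2 and 32.3 CPM against 0.838, 0.888 and 1.08 CPM (log2 fold change 4.49 ± 1.09, adjusted p = 0.11). *Tnf* stood at 10.2, 2.63 and 6.59 CPM against 0.246, 0.666 and 1.13 CPM (adjusted p = 0.164) and *Il1b* at 6.18, 2.63 and 5.32 CPM against 0.444, 0.222 and 1.399 CPM (adjusted p = 0.222). *Socs3*, the feedback inhibitor of cytokine signaling, stood at 33.2, 17.9 and 28.6 CPM against 7.49, 8.21 and 7.37 CPM (adjusted p = 0.11, and 0.0492 without replicate 2). Subunits of NF-κB differed less, with *Nfkb1* at 66.1, 62.7 and 75.7 CPM against 55.4, 56.2 and 50.3 CPM. In the TNF and NF-κB list edgeR called 0 of 27 (11 with an unadjusted p under 0.05), DESeq2 4 and the fit of the 6 libraries alone 5, all higher. Its median was 0.59.

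Most mast cell genes that were tested stood higher after AOM/DSS. Ranges did not overlap for 6 of 8 tested members, all higher, where 15.03% of all genes lay so. *Mcpt1* stood at 29.9, 0.552 and 10.5 CPM against 0.197, 0.222 and 0.377 CPM (log2 fold change 5.65 ± 1.502, adjusted p = 0.123, and 0.0434 without replicate 2), and *Mcpt2* at 20.6, 0.617 and 5.85 CPM against 0.197, 0.333 and 0.215 CPM. Both are proteases of mucosal mast cells, and both were highest in replicate 1 and only a little above the controls in replicate 2. *Cma1*, another mast cell protease, was high in all 3, at 21.5, 20.5 and 15.1 CPM against 6.46, 6.44 and 6.51 CPM (adjusted p = 0.418). Of 14 listed mast cell and eosinophil genes 8 passed the filter, and edgeR called 0 of them (4 with an unadjusted p under 0.05) and DESeq2 2. Members near 0 in controls could pass only through libraries where they were higher. The counts and the median of this list can therefore lean upward by selection. The median was 2.94, or 2.59 with the 1 gene without control reads at its bound.

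Interferon-induced genes stood higher, and here replicate 2 lay with the other treated libraries. *Oas2*, a sensor of double-stranded RNA, stood at 7.89, 7.89 and 13.8 CPM against 0.887, 0.999 and 1.35 CPM (log2 fold change 3.19 ± 1.01, adjusted p = 0.171). *Usp18*, a feedback inhibitor of the pathway, stood at 9.13, 5.68 and 11.4 CPM against 1.48, 2.16 and 1.45 CPM (adjusted p = 0.196), and *Ifit2* at 15.4, 19.3 and 38.1 CPM against 6.902, 6.05 and 5.65 CPM (adjusted p = 0.227). edgeR called 0 of 30 (10 with an unadjusted p under 0.05), DESeq2 2 and the fit of the 6 libraries alone 10, all higher. The median was 0.77, and ranges did not overlap for 20 members in the higher direction and 2 in the lower (15.03% and 14.1% of all genes). The transcription factor gene *Irf7* overlapped, at 101, 88.9 and 109 CPM against 78.2, 96.4 and 134 CPM.

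Genes of antigen presentation by MHC class II overlapped between the groups in 10 of 11 members, with 1 control library far above the rest. Over all genes, ranges did not overlap for 15.03% in the higher direction and 14.1% in the lower. *H2-Aa* stood at 78.02, 70.5 and 54.7 CPM after AOM/DSS and 44.5, 16.8 and 194 CPM in controls, and *Cd74* at 60.3, 42.1 and 40.7 CPM and 31.3, 10.8 and 117 CPM. Control replicate 3 was the highest library in both. The B and plasma cell list summed to 820.3, 736 and 980.4 CPM after AOM/DSS and 425, 265 and 722 CPM in controls, and its part in these values was not tested. Its sum and its median differed in direction, since the median log2 fold change of its 18 genes was -0.35, with 11 negative. The 4 without overlap, all higher (15.03% of all genes), were plasma cell genes such as *Jchain* and *Igha*. edgeR called 0 of 11 MHC class II genes (1 with an unadjusted p under 0.05) and DESeq2 0.

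Epithelial antimicrobial genes were among the lists with the highest medians, at 2.37 over 22 genes. *Duoxa2*, the maturation factor of the hydrogen peroxide producing oxidase DUOX2, stood at 67.7, 38.9 and 70.9 CPM against 8.77, 14.4 and 12.6 CPM (log2 fold change 2.31 ± 0.59, adjusted p = 0.115). *Duox2* itself stood at 232, 166 and 344 CPM against 78.8, 106 and 67.4 CPM (adjusted p = 0.128), and *Slpi*, a secreted protease inhibitor, at 104, 64.3 and 155 CPM against 6.95, 20.1 and 17.3 CPM (adjusted p = 0.189). In these 3 all treated libraries exceeded all controls, whereas *Lcn2*, a siderophore-binding protein, was high in replicates 1 and 3 and close to the controls in replicate 2, at 14.6, 1.103 and 26.3 CPM against 0.986, 0.777 and 0.646 CPM. The lectins *Reg3g* and *Reg3b* overlapped, at 1.95, 0.389 and 11.1 CPM against 1.33, 0.721 and 0.431 CPM and 0.618, 0.519 and 2.89 CPM against 2.76, 2.39 and 0.861 CPM. edgeR called 0 of 22 (11 higher and 2 lower with an unadjusted p under 0.05), and DESeq2 called 8 higher. Of the 2 lower, 1 was *S100g*, a calcium carrier that the list shares with the calcium list. It also shares *Lyz1*, *Ang4*, *Itln1*, *Pla2g2a* and *Defa17* with the Paneth list. *Saa1*, an abundant member, lay below every control, at 10.14, 10.01 and 9.83 log2 CPM against 10.93, 11.25 and 11.08. Summed over the list, the level overlapped, at 25905, 25934 and 22862 CPM after AOM/DSS and 24383, 27144 and 28462 CPM in controls. The median thus does not describe the most abundant members.

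**Figure D4:**
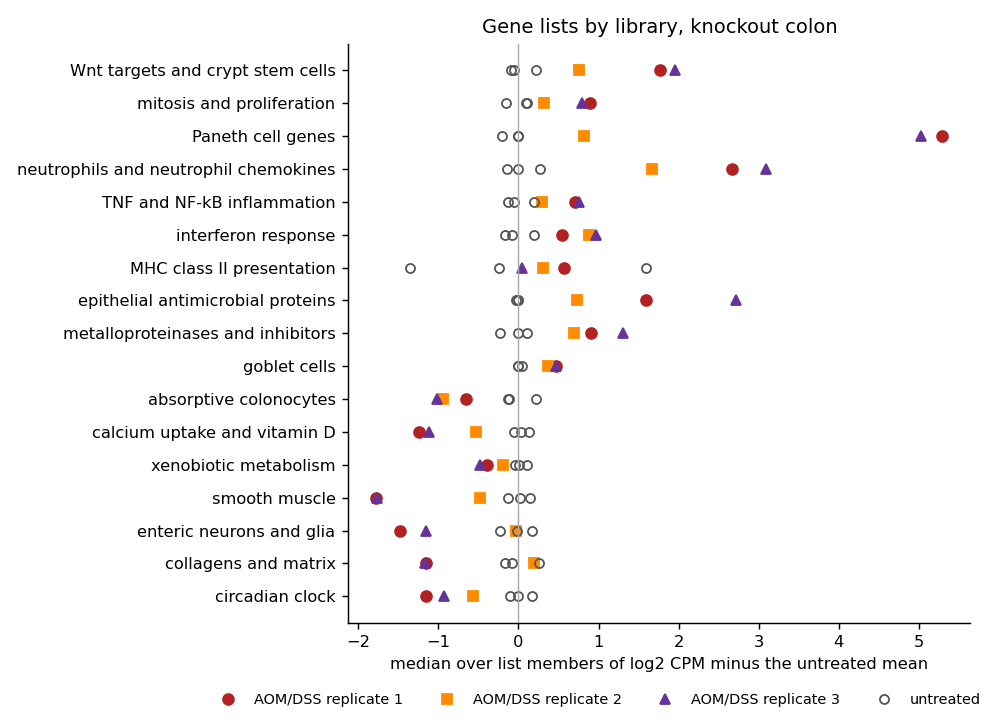
Median log2 CPM difference of selected gene lists in each knockout library, relative to the mean of the Control libraries for each gene. Open circles are untreated libraries and filled symbols the AOM/DSS replicates. Replicate 2 is the nearest of the treated libraries to the controls for the Wnt target, Paneth, smooth muscle and clock lists, and it lies between the other two for interferon and surface colonocyte genes.

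Genes of surface colonocytes stood lower. *Slc26a3*, the chloride-bicarbonate exchanger of the surface epithelium, stood at 377, 892 and 219 CPM against 3113, 3875 and 2157 CPM (log2 fold change -2.62 ± 0.62, adjusted p = 0.105). *Slc20a1*, a phosphate transporter, stood at 146, 285 and 116 CPM against 1022, 792 and 512 CPM (adjusted p = 0.0968), and the carbonic anhydrase *Car4* at 339, 383 and 159.9 CPM against 1296, 1575 and 1378 CPM (adjusted p = 0.117). All treated libraries were under all controls in these 3, and replicate 2 was the nearest to them. edgeR called 0 of 22 (8 with an unadjusted p under 0.05, all lower), DESeq2 4, the fit of the 6 libraries alone 9, and edgeR without replicate 2 called 2, all lower. The median was -1.07. Other members of the list differed less. *Vil1*, the villin of the brush border, stood at 617, 555 and 551 CPM against 628, 674 and 651 CPM and *Krt20*, a keratin of differentiated epithelium, at 1029, 738 and 657 CPM against 866, 1126 and 1143 CPM.

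Transport genes outside that list went both ways. *Slc4a4*, a sodium-bicarbonate cotransporter, stood at 52.96, 59.2 and 52.7 CPM against 187, 185 and 168 CPM (log2 fold change -1.71 ± 0.34, adjusted p = 0.0657), and *Sgk1*, the kinase that raises sodium uptake, at 82.7, 79.3 and 36.7 CPM against 397, 378 and 315 CPM (log2 fold change -2.46 ± 0.51, adjusted p = 0.0692). The sodium channel subunit *Scnn1a* stood at 93.9, 101 and 92.3 CPM against 149, 209 and 168 CPM, and the chloride channel *Cftr* overlapped at 102, 153 and 116 CPM and 128, 105 and 87.7 CPM. edgeR called 0 of 22 (1 higher and 6 lower with an unadjusted p under 0.05), and DESeq2 called 3 lower. Calcium uptake genes were lower in 4 of 6 tested members without overlap, among them *S100g*, a cytosolic calcium carrier, at 12.5, 20.2 and 6.87 CPM against 73.99, 58.7 and 84.8 CPM (adjusted p = 0.194), and *Atp2b1*, the calcium pump, at 174, 231 and 165 CPM against 449, 485 and 367 CPM (adjusted p = 0.141). The channel *Trpv6* overlapped. edgeR called 0 of the 6 calcium genes (4 lower with an unadjusted p under 0.05), DESeq2 1 and the fit of the 6 libraries alone 3, all lower. Over all genes 14.1% lay lower without overlap.

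Goblet cell genes gave a mixed picture. *Muc2*, the gel-forming mucin, overlapped at 1500.4, 1285 and 1658 CPM and 1365, 1340.02 and 1467 CPM, and so did *Clca1* at 3332, 2451 and 2212 CPM and 2367, 2451 and 2077 CPM. *Spink4*, a trypsin inhibitor of goblet cells, stood higher at 1264, 825 and 1083 CPM against 383, 477 and 442 CPM (adjusted p = 0.233), as did *Ern2*, an endoplasmic reticulum stress sensor of mucous cells, at 52.2, 79.5 and 84.2 CPM against 35.1, 30.8 and 29.1 CPM (adjusted p = 0.114) and *Galnt12*, which starts mucin-type glycans, at 82.2, 57.05 and 88.4 CPM against 47.8, 40.2 and 42.1 CPM (adjusted p = 0.104). edgeR called 0 of 18 (6 higher with an unadjusted p under 0.05) and DESeq2 4 higher. The median was 0.49.

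Proliferation genes were all on the higher side by small amounts. All 26 mitosis genes had a positive log2 fold change, with a median of 0.70. Ranges did not overlap for 19, all higher (15.03% of all genes). *Mki67*, expressed in all cycling cells, stood at 268, 208 and 244 CPM against 193, 163 and 190.2 CPM (log2 fold change 0.40 ± 0.45, adjusted p = 0.705), and *Plk1*, a mitotic kinase, at 43.9, 45.2 and 52.8 CPM against 27.9, 18.1 and 25.6 CPM (log2 fold change 0.99 ± 0.25, adjusted p = 0.114). edgeR called 0 of 26 (4 with an unadjusted p under 0.05), DESeq2 1 and the fit of the 6 libraries alone 9. DNA replication genes did not show it, with a median of 0.04 over 30 genes, and *Pcna*, the replication clamp, overlapped at 121, 82.2 and 103 CPM and 97.1, 111 and 116 CPM.

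Genes of cell death gave 1 call, *Mcl1*. In the apoptosis list the median of 20 genes was 0.05. Ranges did not overlap for 5 members in each direction, where 15.03% of all genes lay higher and 14.1% lower. *Bcl2* stood at 13.98, 11.8 and 15.96 CPM against 15.7, 14.04 and 13.6 CPM, overlapping. *Bmf*, a pro-apoptotic protein with only a BH3 domain, stood at 12.5, 11.1 and 30.1 CPM against 5.87, 5.604 and 7.43 CPM (adjusted p = 0.17). For 20 target genes of p53 the median was -0.11, with 0 called by edgeR (2 higher and 2 lower with an unadjusted p under 0.05) and 1 in each direction by DESeq2. *Cdkn1a*, the cell cycle inhibitor among them, overlapped at 228, 123 and 153 CPM and 216, 229 and 206 CPM.

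Smooth muscle RNA was lower in the treated libraries, least so in replicate 2. *Acta2*, the smooth muscle actin, stood at 372, 775 and 295 CPM against 1013, 1061 and 1371 CPM and *Myh11*, the smooth muscle myosin, at 620.2, 1423 and 660.03 CPM against 1712, 1929 and 2139 CPM. Summed over 16 genes the list was at 3317, 7383 and 2996 CPM after AOM/DSS and 9571, 10302 and 12446 CPM in controls, and none of its genes was at 0. Ranges did not overlap for 15 of 16, all lower (14.1% of all genes), with 0 called by edgeR (14 with an unadjusted p under 0.05) or DESeq2. In a bulk sample, fewer cells of a type and less RNA per cell cannot be told apart. Replicate 2 was thus the highest treated library in smooth muscle and the lowest in most Wnt target and Paneth genes. No list was tested for the part of smooth muscle in those results. In a fit of single genes with the mean level of the smooth muscle list as a covariate, edgeR called 2 genes higher and 2 lower.

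Other stromal lists had smaller medians. The fibroblast list had a median of -0.09 and the endothelial list -0.23, or -0.18 and -0.85 without replicate 2. Collagens and other matrix genes had a median of -0.57, and 4 of 27 were called lower without replicate 2, where the median was -1.14. Enteric neurons and glia had a median of -0.75, or -1.35 without replicate 2, with 15 of 16 members negative. In both of these lists the median of replicate 2 lay within the range of the controls. Matrix metalloproteinases were on the other side, with a median of 0.89 over 23 genes, 11 of them without overlap in the higher direction (15.03% of all genes). *Mmp10*, a stromelysin, stood at 5.04, 1.75 and 15.9 CPM against 0.0986, 0.277 and 0.377 CPM (adjusted p = 0.184) and *Mmp14*, a membrane-bound collagenase, at 65.7, 43.9 and 81.1 CPM against 25.4, 21.03 and 29.4 CPM (adjusted p = 0.2). Adipocyte and red cell genes, which report fat and blood carried with a piece, summed to 63.2, 97.2 and 64.8 and 5.71, 1.66 and 2.25 CPM after AOM/DSS and to 121, 120.4 and 113 and 5.52, 7.71 and 8.88 CPM in controls.

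Squamous epithelial genes, which in this region mark the anal border, split the treated libraries in the same way as the Wnt target and Paneth genes. The 9 members tested, of 16 listed, summed to 53.6, 11.03 and 68.3 CPM after AOM/DSS and 10.01, 12.5 and 13.8 CPM in controls. *Krt14*, a keratin of basal layers, stood at 25.3, 3.47 and 37.6 CPM against 2.61, 4.72 and 5.92 CPM (adjusted p = 0.245), and *Krt13*, a keratin of stratified mucosa, at 15.6, 1.72 and 21.1 CPM against 0.739, 0.444 and 1.02 CPM (adjusted p = 0.176). Both were high in replicates 1 and 3, while *Krt5* and *Trp63*, which define basal squamous cells, were near 0 in all 6 libraries, at most 0.394 CPM. edgeR and DESeq2 called 0 of 9 (4 higher with an unadjusted p under 0.05 by edgeR). Ranges did not overlap for 2, both higher, where 15.03% of all genes lay so. The median was 2.14, or 2.68 without replicate 2. Members near 0 in controls could pass the filter on low counts only through libraries where they were higher. The counts and the median of this list can therefore lean upward by selection. The part of squamous cells in the Wnt and Paneth values was not tested.

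Junction genes had a median near that of all genes. Over 26 claudin and tight junction genes it was -0.00, and edgeR called 0 of them (3 higher and 2 lower with an unadjusted p under 0.05) as did DESeq2. *Cldn1* overlapped at 1.62, 2.92 and 0.634 CPM and 1.82, 1.11 and 2.74 CPM and *Cldn3* at 325, 241 and 269 CPM and 304, 350.3 and 392 CPM. *Cldn4*, a sealing claudin, was high in replicates 1 and 3 alone, at 175, 46.1 and 153 CPM against 32.3, 47.05 and 38.6 CPM (adjusted p = 0.338). *Cldn15*, like claudin-2 a cation channel, stood at 53.6, 55.4 and 39.4 CPM against 35.6, 32.2 and 32.4 CPM (log2 fold change 0.56 ± 0.56, adjusted p = 0.658). Of the growth factor genes that the study discusses, *Egf* stood at 1.997, 2.89 and 3.91 CPM against 2.66, 2.22 and 1.29 CPM and *Ereg*, a ligand of the same receptor, at 3.14, 6.78 and 5.21 CPM against 9.47, 5.604 and 7.64 CPM, both overlapping. *Egfr*, the receptor, was higher in all 3 treated libraries, at 58.3, 43.8 and 74.9 CPM against 41.9, 39.1 and 32.7 CPM (adjusted p = 0.157). *Birc5*, which encodes Survivin, overlapped at 46.8, 28.1 and 35.8 CPM and 27.1, 17.8 and 32.8 CPM.

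The same protocol in WT mice changed 3.81% of genes upward and 6.58% downward by the same fit. Those 6 libraries share none with the knockout comparison. WT Control replicate 2 stood apart from the other two (chi-square per degree of freedom 232 and 292, against 10.98 between those), and without it 345 genes were called in WT in place of 1761. Without WT AOM/DSS replicate 3 the count was 170. Of the 33 genes called in the knockout, 28 had the same sign in WT, and 20 were also called there in the same direction, 5 higher and 15 lower. The 5 with the other sign in WT were *Igkv8-30*, *Ddah1*, *Zc3h12a*, *Tmem248* and *Hist1h4h*, and for the last 3 the WT log2 fold change was small, at -0.003, 0.0021 and 0.11. This count is to be read against the shares called in WT. Which genotype had more calls depended on the fit. In fits of the 6 libraries of 1 genotype alone the knockout had 920 and WT 7, and limma-voom called 3107 and 2576. A direct test of the difference between the responses called 2 genes, 0.0118% in the higher direction and 0.00% in the lower. In the lower direction 512 genes had an unadjusted p under 0.05, and DESeq2 called 10. In the higher direction 917 had such a p, and DESeq2 called 77. Leaving out 1 library at a time gave 0 to 11 such genes, so neither call held in every one of these fits.

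*Ddah1* was the clearest of these. In WT mice it stood at 50.7, 61.2 and 58.9 CPM after AOM/DSS and 71.2, 52.7 and 72.5 CPM in controls, a log2 fold change of -0.20. The knockout response exceeded it by 2.24 ± 0.30 on the log2 scale (adjusted p = 0.0198, edgeR interaction). All 3 knockout controls lay below all 3 WT controls, whereas the treated libraries of the genotypes overlapped. That order was common among the genes that rose. The knockout controls lay below the WT controls for 10 of the 13, *Dhrs9*, *Nod2*, *Zc3h12a* and *Gpr55* among them, and for 9 of these the treated libraries overlapped. Over all genes tested 10.7% had controls in that order, but a call for a rise itself favors low knockout controls, so nothing is read from the count. The second call, *Ighv5-16*, is a segment of the antibody heavy chain with no read in any treated WT library, and its values are given with the closer looks at single results.

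**Figure D5:**
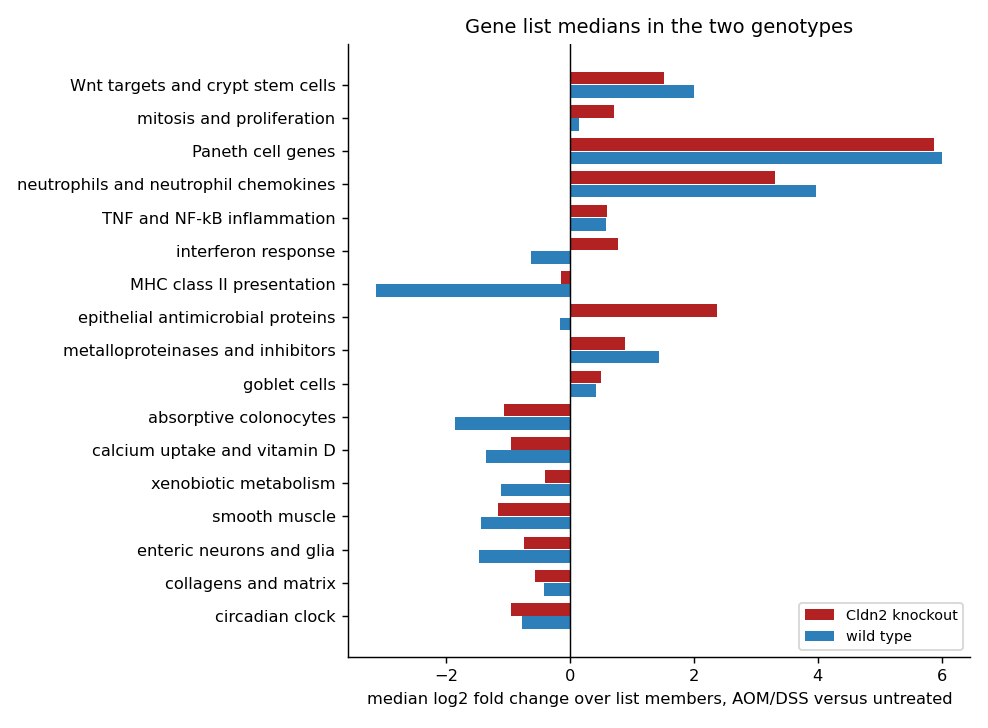
Median log2 fold change of gene lists after AOM/DSS in knockout and in WT mice, as bars from 0. Wnt targets, Paneth genes and surface colonocyte genes have medians of the same sign in both genotypes, while the interferon and antimicrobial lists have medians of opposite sign. The median of the differences gene by gene was 0.74 for the antimicrobial list, less than the gap between its bars.

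Medians of the lists are given side by side for the 2 genotypes, with no test of a list. Wnt targets had a median of 1.995 in WT and 1.51 in the knockout, Paneth genes 6.01 and 5.87, surface colonocyte genes -1.85 and -1.07, and clock genes -0.77 and -0.95. Interferon-induced genes had a median of -0.63 in WT against 0.77 in the knockout, epithelial antimicrobial genes -0.16 against 2.37, and MHC class II genes -3.13 against -0.15. Taken gene by gene, the knockout minus WT difference had a median of 1.48, 0.74 and 2.97 in these 3 lists. In WT 4 antimicrobial genes were called higher and 1 lower. Lists that report the makeup of a piece differed as much between genotypes. Adipocyte genes, at -3.75 in WT and 0.41 in the knockout, had a median difference of 4.16, the largest of the 46 lists. It was 2.87 for genes of small intestine and proximal colon and 2.28 for T and NK cell genes. MHC class I genes had a median difference of 0.91, with 12 of 18 called lower in WT and 0 in the knockout. The part of tissue makeup, and of WT Control replicate 2, in these differences was not tested. *Oas2* had a WT log2 fold change of -0.12, and its difference of 3.31 ± 1.33 between genotypes had an adjusted p of 0.536 (edgeR interaction). For *Duoxa2* the WT value was -0.57 and the difference 2.88 ± 0.80 (adjusted p = 0.404), for *Nos2* 0.74 and 3.75 ± 1.37 (adjusted p = 0.509), and for *H2-DMb1* -3.403 and 3.59 ± 0.69 (adjusted p = 0.213). None of these 4 passed the threshold for the difference. By the same test *Btnl2*, a butyrophilin-like regulator of T cells, differed by 3.82 ± 0.73 (adjusted p = 0.213), and the apolipoprotein L genes *Apol7a* and *Apol10a* by 2.13 ± 0.38 and 4.56 ± 0.83 (adjusted p = 0.197 and 0.208).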

How the data were processed

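RNA was extracted from mouse colon and sequenced on an Illumina instrument. The authors deposited 1 table of whole-number read counts for each gene, not normalized, with 1 column per library and lane. The submitters' notes name HISAT2, Subread, featureCounts and GRCm38, whereas the methods name TopHat2. Versions, the strand setting and the treatment of reads with several alignments are not given in the sources used here.

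The lanes of each library were summed. Of 47729 genes, 47310 matched GENCODE M21, which gave their symbols, and 419 did not (at most 0.0292% of a library's reads). edgeR's filterByExpr kept 16937 genes and dropped 30792. A model with 1 mean for each of the groups took all 18 libraries, with TMM scaling and the robust quasi-likelihood method (biological coefficient of variation 0.315). A gene counted as called where its p, adjusted by Benjamini-Hochberg over all genes tested, was under 0.05. Fold changes compare AOM/DSS with Control in the knockout and carry the SE of the fit. Tools were R 4.3.3, edgeR 4.0.16, limma 3.58.1 and DESeq2 1.42.0, and the fit was tested on simulated data. In the lanes of a library the counts differed by little more than sampling noise (chi-square per degree of freedom at most 1.17). The lowest such value between replicates was 10.98, so no library was a copy of another.

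Libraries held 17.8 to 27.4 M reads. In list medians given at a bound, a gene with no read in the 3 controls was set against a floor of 3 reads over them, which covers counting error only. Members and gene lists were chosen with earlier results of these data known. Genes named were up to 10 called genes with the largest change in each direction, the first 2 members of each list, up to 4 called members of a list and the 5 genes with the smallest adjusted p for the difference between genotypes. All others were chosen after their values were seen. Alternatives were other scalings, filters, tools, sample subsets, thresholds and covariates, 1 lane, and leaving out each library. Of the latter, the list medians without AOM/DSS replicate 2, and the test with the *Xist*-low treated library alone, were added after seeing the data. Libraries of the recovery groups entered the fit only to estimate the spread. One called gene that fell, and some members of the lists, entered every count but are not reported by name here.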

Additional observations from a re-analysis of the deposited data

Results flagged for a closer look

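Comparing the genotypes gave 2 genes whose response to AOM/DSS differed by the interaction test. For *Ddah1* the knockout response exceeded the WT response by 2.24 ± 0.30 on the log2 scale (SE; adjusted p = 0.0198, edgeR). The knockout libraries stood at 63.4, 44.2 and 60.1 CPM after AOM/DSS and 15.9, 10.2 and 14.9 CPM in controls, and the WT libraries at 50.7, 61.2 and 58.9 and 71.2, 52.7 and 72.5 CPM. It was higher after treatment in 3 of 3 knockout libraries and overlapped the controls in WT.

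*Ighv5-16* encodes a heavy-chain segment of antibodies. It stood at 0.1902, 0.162 and 0.387 CPM after AOM/DSS and 0.0493, 0 and 0.0538 CPM in controls of the knockout. In WT mice no treated library held a read and the controls stood at 1.26, 1.44 and 1.43 CPM. The fitted difference of 10.48 on the log2 scale (adjusted p = 0.0198, edgeR) rests on those libraries without a read and is no bound on its size. *Igkv8-30*, a light-chain segment, was likewise higher after AOM/DSS in the knockout and lower in WT mice, with 0.726, 3.33 and 1.89 CPM in treated and 7.79, 10.9 and 11.8 CPM in control WT libraries, and its difference had an adjusted p of 0.0671. Both are single segments at low level, and whether they follow a few B cell clones was not tested.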

How the results depend on the processing

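The number of genes called in the knockout depended strongly on the fit. Against 33 (13 higher and 20 lower), DESeq2 called 601 (364 and 237), limma-voom with sample weights 3107 (1566 and 1541), and edgeR on the 6 compared libraries alone 920 (486 and 434). Lane 1 alone gave 21 (8 and 13), the *Xist* covariate 5 (1 and 4), the smooth muscle covariate 4 (2 and 2), an adjusted p under 0.01 4 (1 and 3), and the *Xist*-low treated library alone 1 (1 and 0). That last fit assumes that a lone library varies like the other groups. Leaving out 1 library at a time gave 4 to 211 genes (1 to 99 higher and 3 to 112 lower). The highest count was without AOM/DSS replicate 2 and the others were 4 to 6, so each library decided the count. The 1761 calls in WT became 943 with no filter, 3033 with DESeq2, 7 with the smooth muscle covariate, 7 in the fit of the 6 WT libraries alone, 113 at an adjusted p under 0.01, 1071 with a log2 fold change over 1, and 170 to 1696 with 1 library left out (345 without WT Control replicate 2). The 2 genes that differed between genotypes became 4 with no filter, 87 with DESeq2, 299 with limma-voom, 0 with only the compared groups, 0 at an adjusted p under 0.01, and 0 to 11 with 1 library left out. At an unadjusted p under 0.05 edgeR gave 1429 such genes. The cause of these shifts was not tested. Of 114 named genes, 43, none of them called, took the other sign in at least 1 setting, and 21 of 46 lists had a median that did so, in 74 of 782 values over all lists and settings. No paired analysis was possible because the titles of the treated libraries share no replicate numbers with the controls.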

Other observations

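Other genes known to respond to glucocorticoids were looked at after *Tsc22d3* and *Per1*, which both belong to them, had been called lower. This choice was made after their values were seen. *Fkbp5*, a co-chaperone of the glucocorticoid receptor, stood at 48.7, 30.2 and 17.2 CPM after AOM/DSS against 93.4, 116 and 102 CPM in controls of the knockout (log2 fold change -1.696 ± 0.51, adjusted p = 0.154, edgeR). In WT mice it stood at 38.7, 22.5 and 9.98 CPM against 90.5, 220.4 and 85.4 CPM. *Dusp1*, a phosphatase of MAP kinases, stood at 19.9, 20.2 and 11.9 CPM against 34.2, 37.3 and 41.8 CPM (adjusted p = 0.197), and *Klf15* at 1.19, 1.07 and 1.303 CPM against 1.87, 2.22 and 2.74 CPM (adjusted p = 0.253). For these 3 all treated knockout libraries were below all controls. *Klf9* overlapped, at 47.3, 59.7 and 55.2 CPM and 65.7, 85.6 and 43.97 CPM. None of the 4 passed the threshold. *Dusp1* also belongs to the list of immediate early and heat shock genes, which respond to stress and to handling. Of its 16 tested members 0 were called by edgeR (6 lower with an unadjusted p under 0.05) and 2 lower by DESeq2, the median log2 fold change was -0.42, and ranges did not overlap for 7, all lower (14.1% of all genes in that direction). *Fos* stood at 88.2, 101 and 45.9 CPM against 135, 206 and 313 CPM, *Hspa1b*, an inducible chaperone, at 7.18, 13.01 and 6.62 CPM against 21.9, 26.9 and 27.9 CPM and *Hsph1* at 60.4, 37.5 and 34.8 CPM against 95.2, 95.7 and 111 CPM. The part of handling in these values was not tested.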
